A study of Bos taurus with 10 samples.

Results

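Solute carriers are the membrane proteins that move sugars, amino acids, metals, nucleosides, lipids and inorganic ions across the plasma membrane and across the membranes of organelles. The 66 solute carrier genes described here are those with a single current symbol that begins with SLC and a digit, out of 4366 genes that could be named on a bovine cDNA array. The annotation held 68 such symbols. Of these, 67 stood alone in their entry, 1 of them (SLC46A3) fell outside the plates whose order could be recovered, and SLC25A37 shared its entry with another symbol and was left out. The 66 genes were represented by 85 array elements, each a cDNA clone spotted as a pair, and 16 genes had more than 1 element. A value on all 10 arrays was obtained for 65 genes, and SLC25A33 lacked some.

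Tissues of cows at peak lactation, namely liver, mammary gland and 3 adipose depots (mesenteric, omental and subcutaneous), were each compared with a reference standard made by mixing RNA of several tissues. Each tissue was 1 RNA sample on 2 arrays, with the tissue in Cy3 on one and in Cy5 on the other. The labels give no breed, age or number of cows, and no treatment. Because the 2 arrays of a tissue repeat the same RNA, no spread between animals was measured and no p-value is given. A level is the log2 ratio of a tissue over the reference, centred on the array's median. The value after ± is the distance of either dye orientation from the mean of both, so it covers labelling and slide error only. A gene was counted as higher or lower in a comparison when the mean difference was at least 1 on the log2 scale (2-fold) with the same sign in both orientations, which is called the size rule below.

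A mammary gland in full lactation takes glucose, amino acids, fatty acids, zinc and calcium from blood to make milk. The liver supplies glucose, oxidises fatty acids carried into mitochondria as acylcarnitines, and takes bile acids back from portal blood. Adipose depots release fatty acids at this stage, and also hold vessels, fibroblasts and immune cells.

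The tissue labels were checked against marker genes. The 5 measured hepatocyte genes had a median level of 3.67 in liver and -1.31 in mammary gland, and the 6 measured genes of mammary secretory epithelium had 3.64 in mammary gland and 0.40 in liver. Of the hepatocyte genes, APOA1 passed the rule in neither liver comparison and stood at 0.85 in liver and 1.86 in subcutaneous tissue. The 3 measured fibroblast genes had medians of 2.41 in mesenteric, 2.73 in omental and 1.41 in subcutaneous tissue, against -1.43 in liver and -1.36 in mammary gland. The caseins and most adipocyte markers were not among the measured genes, and the 1 adipocyte gene measured, the lipase gene LIPE, stood at 2.26 in mesenteric, 2.18 in omental and 0.31 in subcutaneous adipose tissue. The subcutaneous library stood apart. All 7 measured myeloid genes were higher there than in the visceral depots, with a median difference of 3.53 and a range of 1.41 to 5.33. Both lymphocyte genes measured, CD3D and CD3E, were higher there too. Results that rest on the subcutaneous library are therefore given beside these values and, where the comparison allows, without that library. In such bulk samples, fewer cells of a type and less RNA per cell cannot be told apart.

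The direction of the deposited ratios is likely and not certain, since the labels do not state which dye is the numerator. With the opposite direction every difference given here changes sign. Gene names rest on a reconstructed link between array positions and the annotation, described with the processing. Agreement between clones was lowest on plates 1 and 19, which hold the only element of SLC27A2 (plate 1) and of SLC40A1 (plate 19), so these names are the least certain of those with large differences. The hepatocyte and mammary genes helped to settle the direction, so their position is no independent result.

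The spread of the solute carriers across the 5 tissues was near that of all genes at its median, with a larger share of wide gaps. The gap between a gene's highest and lowest tissue had a median of 0.80 over the 65 solute carriers, against 0.73 over all 4307 named genes with a value on every array. It reached at least 2 in 13 of the 65 (20.0%), against 10.7% of all genes. The smallest gap was 0.15, in the orphan carrier SLC12A9, and the largest was 5.99, in the bile acid carrier SLC10A1. Liver was the highest of the 5 tissues for 26 solute carriers (40.0%, against 24.6% of all genes), mammary gland for 18 (27.7%, against 23.3%) and subcutaneous adipose tissue for 16 (24.6%, against 26.1%). Mesenteric tissue was highest for 2 genes (3.08%, against 16.2%) and omental tissue for 3 (4.62%, against 9.82%). These shares rest on the mean of both dye orientations. Liver was highest in each orientation for 21 of its 26 genes, and mammary gland for 9 of its 18. Subcutaneous tissue was so for 12 of its 16, mesenteric tissue for both of its 2 and omental tissue for 1 of its 3. This was not counted over all genes, so these counts cannot be set against a background. The shares also rest on the direction of the ratio. With the direction turned, liver and mammary gland would each be highest for 13 solute carriers (20.0%, against 29.9% and 26.8% of all genes), mesenteric tissue for 18 (27.7%, against 15.7%), omental tissue for 7 (10.8%, against 8.99%) and subcutaneous tissue for 14 (21.5%, against 18.7%). Relative to the reference, the highest ratio of any solute carrier was that of SLC10A1 in liver, SLC30A4 in mammary gland and SLC40A1 in each adipose depot. The lowest ratio was that of SLC1A3 in liver, mammary gland and subcutaneous tissue, SLC25A5 in mesenteric and SLC2A3 in omental tissue. These are ratios to one mixed RNA and not amounts of transcript, and with the direction turned the highest and lowest genes change places.

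**Figure D1:**
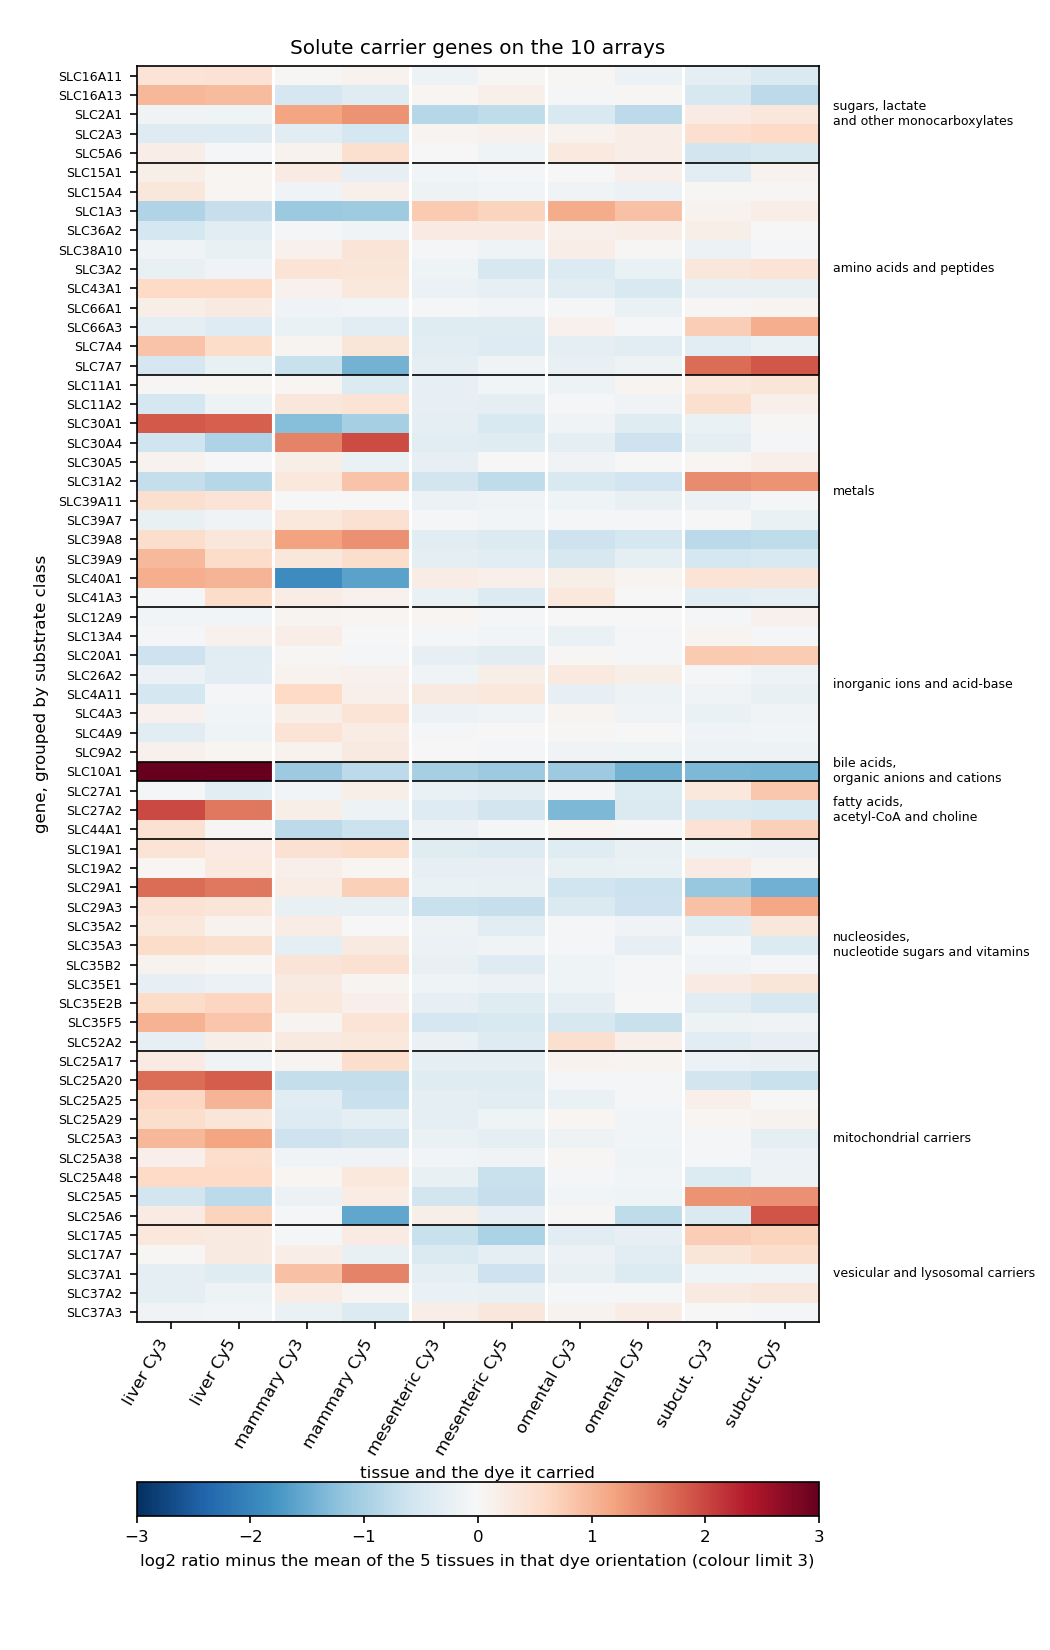
Levels of the 65 solute carrier genes with a value on every array (rows, grouped by substrate class) on the 10 arrays (columns, by tissue and the dye it carried), as log2 ratio minus the mean of the 5 tissues in the same dye orientation, with colours limited at 3. SLC10A1 stands out in both liver columns, SLC30A4 and SLC2A1 in both mammary columns, and SLC7A7, SLC31A2 and SLC25A5 in both subcutaneous columns.

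Liver, the bile-forming organ, was compared with mammary gland, the milk-secreting organ. Of the 66 genes measured, 10 were higher in liver (15.2%, where 9.39% of all 4325 genes were) and 4 were higher in mammary gland (6.06%, where 4.44% of all genes were). The genes higher in liver carry bile acids, acylcarnitines, fatty acids, zinc, iron, phosphate, adenine nucleotides, monocarboxylates and nucleosides. Those higher in mammary gland carry zinc, copper, glucose and sugar phosphates. The median difference over the solute carriers was 0.09, against -0.01 over all genes. Without centring these medians were -0.12 and -0.22, so the solute carriers' median changed sign with the scaling while it stayed above that of all genes. The solute carriers then numbered 8 higher and 5 lower in liver, beside 304 and 299 of all genes. SLC25A6 and SLC29A1 were lost, and SLC39A8 was gained as lower in liver.

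Liver was also compared with the mean of the 3 adipose depots. Here 11 of 65 genes were higher in liver (16.9%, against 7.33% of all 4326 genes) and 1 was lower (1.54%, against 6.06%). Without centring there were 6 higher and 4 lower, beside 232 and 438 of all genes. SLC25A3 (0.99), SLC39A9 (0.90), SLC16A13 (0.90), SLC7A4 (0.75) and SLC39A8 (0.75) then no longer passed. Mammary gland against the same adipose mean gave 5 genes higher (7.69%, against 2.85% of all 4313 genes) and 3 lower (4.62%, against 6.72%). These comparisons share the liver, mammary and adipose arrays with one another. Subcutaneous against visceral adipose tissue, the mean of the mesenteric and omental depots, gave 7 genes higher (10.8%, against 6.23% of all 4332 genes) and 1 lower (1.54%, against 3.69%). Without centring, which raised the median of all genes to 0.64 in this comparison, there were 19 higher and 0 lower, beside 861 and 40 of all genes. No solute carrier passed the size rule between mesenteric and omental tissue, where 0.783% of all 4340 genes were higher and 0.576% lower. With 65 solute carriers, shares that low correspond to less than 1 gene.

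**Figure D2:**
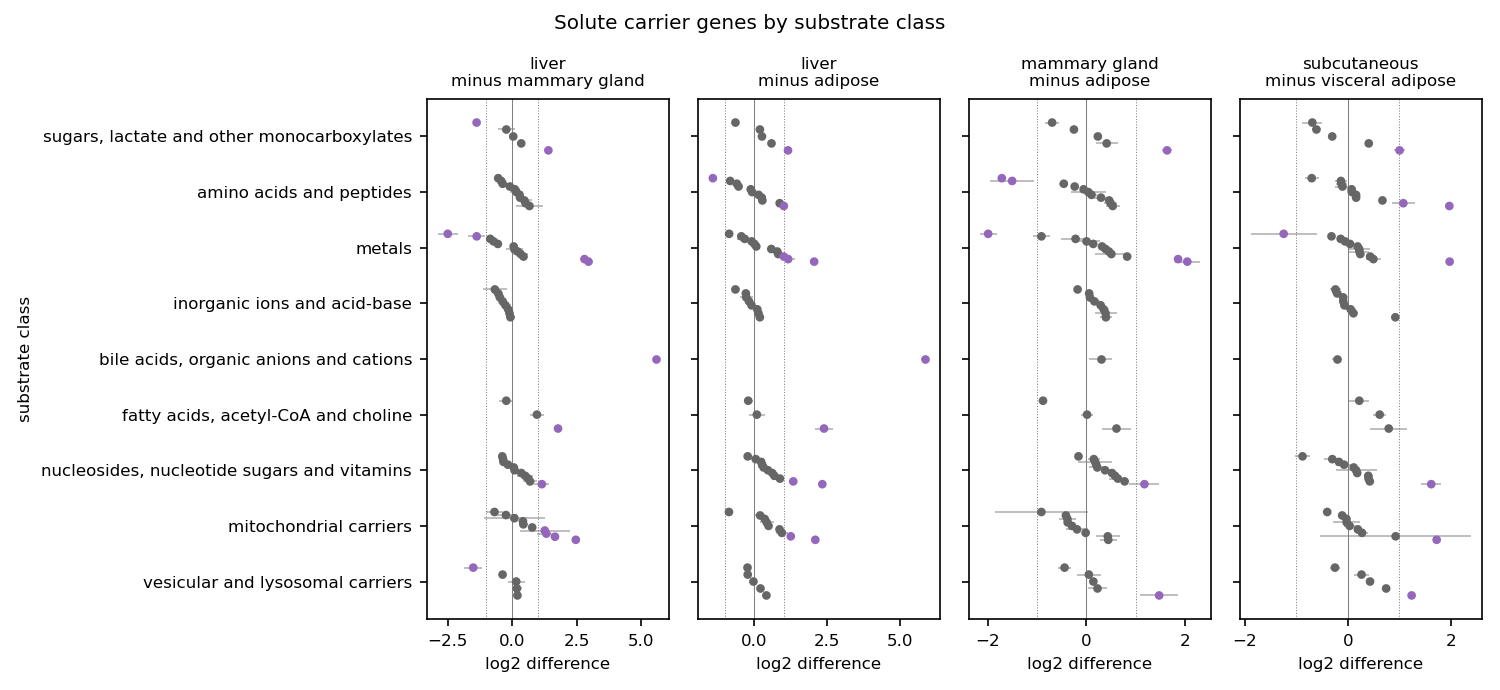
Differences of the solute carrier genes by substrate class in 4 comparisons, in log2 units, with horizontal bars reaching the value of each dye orientation. Purple points passed the size rule, dotted lines mark -1 and 1, and every inorganic ion carrier lies between the dotted lines in all 4 panels.

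The only bile acid carrier measured, SLC10A1 (NTCP, the sodium-coupled uptake carrier of hepatocytes), gave the largest difference of the family. Its level was 4.54 ± 1.56 in liver, -1.02 ± 1.65 in mammary gland, -1.13 ± 1.45 in mesenteric, -1.35 ± 1.33 in omental and -1.45 ± 1.49 in subcutaneous tissue. Liver was high on both of its arrays, and the other 4 tissues lay close together. The wide errors of these levels came from an offset between the dyes that all tissues shared, since the levels were 2.98 with liver in Cy3 and 6.10 with liver in Cy5, and -2.67 and 0.63 for mammary gland. Within a dye orientation the offset cancels, and the difference was 5.56 ± 0.09 against mammary gland (47.3-fold) and 5.85 ± 0.14 against adipose tissue (57.7-fold). The organic anion carrier SLCO2B1, which has another symbol and was on a list of genes that work with solute carriers, was also higher in liver than in mammary gland (3.16 ± 0.04) and adipose tissue (2.95 ± 0.06).

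**Figure D3:**
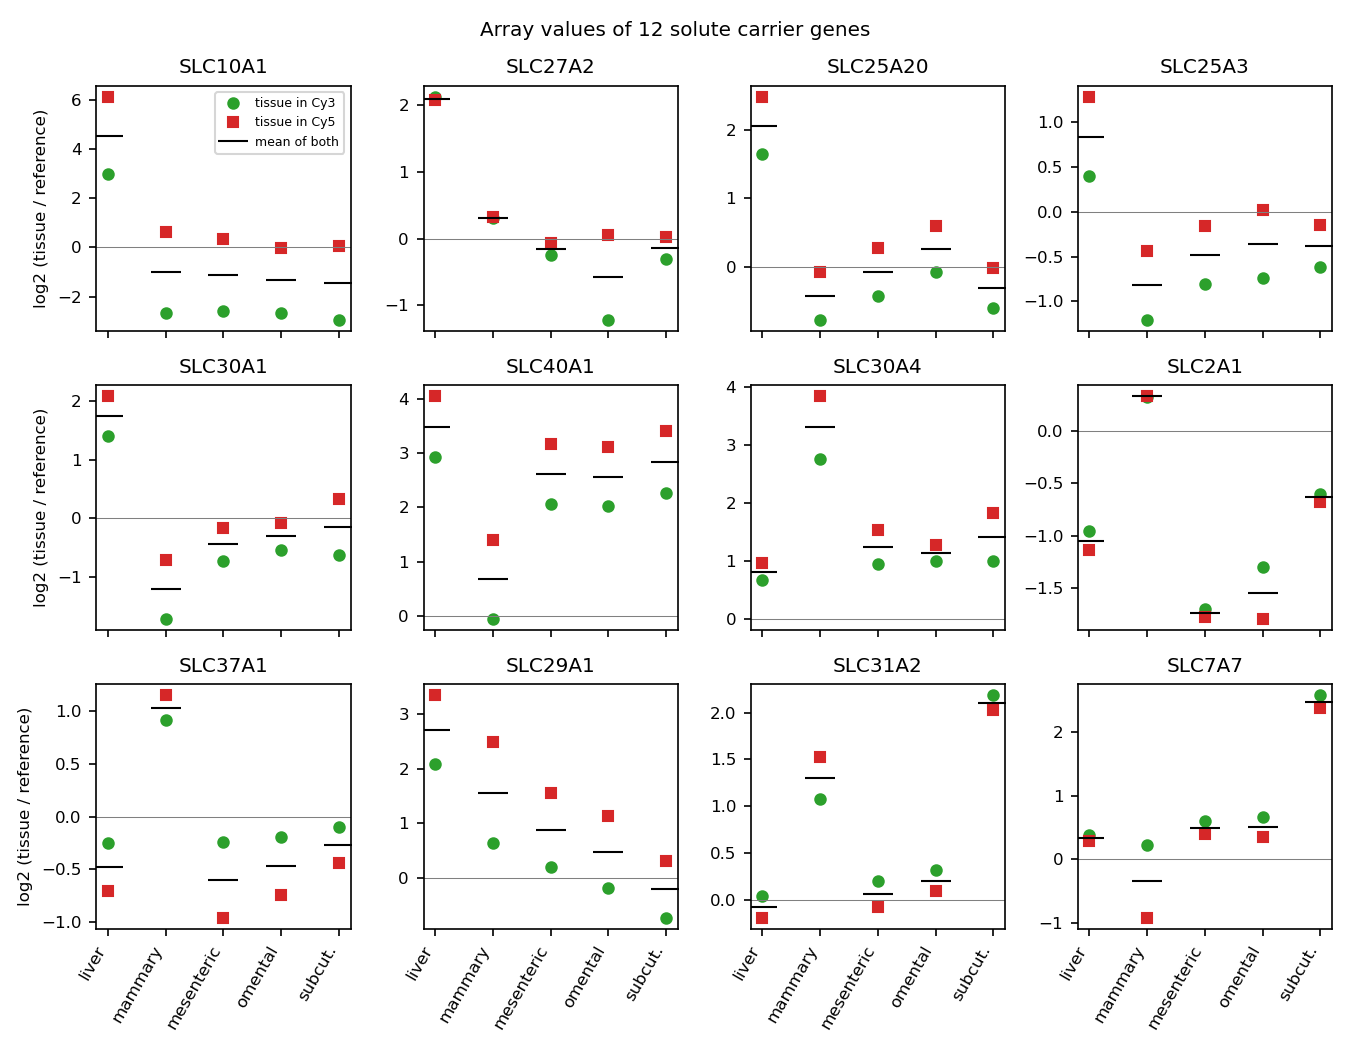
Levels of 12 solute carrier genes in the 5 tissues, as log2 ratio of tissue over reference, with circles for the array that had the tissue in Cy3, squares for Cy5 and a bar at their mean. For SLC10A1 the circles lie below the squares in every tissue by a like amount, so the dye offset hardly alters the liver difference.

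Among the 3 carriers of fatty acids and choline, SLC27A2 was higher in liver. Its only element lies on plate 1. It encodes FATP2, a fatty acid transport protein and very-long-chain acyl-CoA synthetase of liver and kidney. Its level was 2.09 ± 0.03 in liver, 0.32 ± 0.01 in mammary gland, -0.16 ± 0.09 in mesenteric, -0.58 ± 0.64 in omental and -0.15 ± 0.17 in subcutaneous tissue. Liver stood above all other tissues, by 1.78 ± 0.03 over mammary gland (3.43-fold) and 2.39 ± 0.32 over adipose tissue (5.23-fold), while the order of the adipose depots was not the same in both orientations. SLC27A1, or FATP1, the insulin-responsive fatty acid carrier of adipose tissue and muscle, passed the rule nowhere. It was highest in subcutaneous tissue at 1.15 ± 0.27, against 0.64 ± 0.15 in mammary gland, 0.41 ± 0.12 in liver and 0.36 in both visceral depots. The choline carrier SLC44A1 lay just inside 1, with a difference of 0.96 ± 0.28 between liver and mammary gland and -0.88 ± 0.01 between mammary gland and adipose tissue, and it was lowest in mammary gland at -0.81 ± 0.17.

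Most carriers of the SLC25 family exchange metabolites across the inner mitochondrial membrane. The class was set by family number alone, so the peroxisomal carrier SLC25A17 is counted in it. Of the 10 measured, 4 were higher in liver than in mammary gland, where 9.39% of all genes were, and none was lower, where 4.44% of all genes were. Of these 4, SLC25A6 and SLC25A25 reached 1 in only 1 dye orientation. The median difference of the 10 was 0.61, against -0.01 for all genes. The carnitine-acylcarnitine carrier SLC25A20 brings fatty acids into the matrix for oxidation. Its level was 2.05 ± 0.42 in liver, -0.41 ± 0.35 in mammary gland, -0.07 ± 0.35 in mesenteric, 0.26 ± 0.34 in omental and -0.30 ± 0.29 in subcutaneous tissue. Mammary gland was the lowest of the 5 in both orientations, and liver exceeded it by 2.47 ± 0.07 (5.53-fold) and adipose tissue by 2.09 ± 0.09 (4.26-fold). Both carnitine palmitoyltransferases, which make and use acylcarnitines on either side of this carrier, were higher in liver as well. CPT1A differed by 3.20 ± 0.07 from mammary gland and 2.64 ± 0.04 from adipose tissue, and CPT2 by 1.85 ± 0.05 and 1.55 ± 0.04.

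SLC25A3, which imports phosphate for ATP synthesis, stood at 0.84 ± 0.44 in liver, -0.82 ± 0.38 in mammary gland, -0.48 ± 0.32 in mesenteric, -0.36 ± 0.38 in omental and -0.39 ± 0.23 in subcutaneous tissue. It was high in liver alone of the 5 tissues, by 1.66 ± 0.06 over mammary gland and 1.25 ± 0.13 over adipose tissue. SLC25A25 exchanges ATP-Mg for phosphate under the control of calcium. It was higher in liver than in mammary gland by 1.33 ± 0.38 and missed the rule against adipose tissue at 0.94 ± 0.21.

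The ADP/ATP carriers SLC25A5 and SLC25A6, near-identical proteins whose cDNAs may cross-hybridise, behaved differently from each other on these arrays. SLC25A5 was high in subcutaneous tissue, at -0.08 ± 0.10 against -2.06 ± 0.18 in mesenteric, -1.55 ± 0.15 in omental, -2.10 ± 0.24 in liver and -1.42 ± 0.07 in mammary tissue. The subcutaneous value lay above the other 4 in both orientations, and the difference from the visceral depots was 1.72 ± 0.06 (3.30-fold). SLC25A6 counted as higher in liver than in mammary gland at 1.27 ± 0.97, but the orientations gave 0.30 with the tissues in Cy3 and 2.24 with the tissues in Cy5, so this call rests on 1 orientation. Between subcutaneous and visceral tissue its orientations had opposite signs, with a mean of 0.93 ± 1.46. The other SLC25 genes with complete data, SLC25A17, SLC25A29, SLC25A38 and SLC25A48, passed the rule in no comparison. SLC25A33, a pyrimidine nucleotide carrier, could be compared between liver and mammary gland only, where it differed by 0.09 ± 1.18. Outside the SLC symbols, 3 of 7 measured genes of mitochondrial transport were higher in liver than in mammary gland (9.39% of all genes were) and none was lower (4.44% of all genes): MTCH2 at 1.32 ± 0.05, VDAC1 at 1.44 ± 0.05 and VDAC3 at 1.16 ± 0.37. Against adipose tissue, 2 of the 7 were higher in liver and 1 lower (7.33% and 6.06% of all genes), the latter MTCH1 at -1.20 ± 0.09, and none was higher and 1 lower in mammary gland (2.85% and 6.72% of all genes).

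Metal carriers had the widest range of differences between liver and mammary gland of the substrate classes, from -2.49 to 2.96. Of the 12 measured, 2 were higher in liver and 2 higher in mammary gland, where 9.39% and 4.44% of all genes were, so the counts themselves are near the background. The zinc carriers SLC30A1 and SLC30A4 lay at opposite ends. SLC30A1 (ZnT1) exports zinc across the plasma membrane, and stood at 1.75 ± 0.34 in liver, -1.21 ± 0.50 in mammary gland, -0.45 ± 0.28 in mesenteric, -0.31 ± 0.23 in omental and -0.16 ± 0.47 in subcutaneous tissue. SLC30A4 (ZnT4) loads zinc into secretory vesicles, and its loss in the lethal milk mouse leaves milk short of zinc. It stood at 3.30 ± 0.54 in mammary gland, 0.81 ± 0.15 in liver, 1.23 ± 0.30 in mesenteric, 1.14 ± 0.14 in omental and 1.41 ± 0.41 in subcutaneous tissue. Liver was thus the highest tissue for SLC30A1 and the lowest for SLC30A4, and mammary gland the reverse, in both orientations. The liver minus mammary difference was 2.96 ± 0.17 for SLC30A1 (7.78-fold) and -2.49 ± 0.39 for SLC30A4 (5.62-fold in the other direction). Against adipose tissue, SLC30A1 was higher in liver by 2.05 ± 0.01 and SLC30A4 higher in mammary gland by 2.04 ± 0.26, while SLC30A1 in mammary gland just missed the rule at -0.91 ± 0.17. A related carrier, SLC30A5, was flat, with all 5 tissues between -0.09 and 0.14, but its only element lies on plate 1.

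SLC40A1, whose only element lies on plate 19, is ferroportin, the exporter of cellular iron in hepatocytes, macrophages and gut. Its level was 3.48 ± 0.56 in liver, 2.83 ± 0.57 in subcutaneous, 2.62 ± 0.55 in mesenteric, 2.56 ± 0.54 in omental and 0.68 ± 0.73 in mammary tissue. This order held in both orientations, and mammary gland stood apart below the rest. The difference from mammary gland was 2.80 ± 0.17 for liver (6.98-fold), and mammary gland was below the adipose mean by a difference of -1.99 ± 0.17. SLC40A1 did not pass the rule between liver and adipose tissue (0.82 ± 0.01) or between subcutaneous and visceral tissue (0.24 ± 0.03). SLC11A1 (NRAMP1), which moves iron and manganese out of phagosomes of macrophages, was highest in subcutaneous tissue at 0.76 ± 0.01 and between 0.26 and 0.47 elsewhere, and passed the rule nowhere.

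SLC31A2, a copper carrier of endosomes and lysosomes, was highest in subcutaneous tissue at 2.11 ± 0.08 and next in mammary gland at 1.30 ± 0.22, against -0.07 ± 0.12 in liver, 0.06 ± 0.14 in mesenteric and 0.20 ± 0.11 in omental tissue. All 4 steps of this order held in both orientations. The subcutaneous depot exceeded the visceral depots by 1.98 ± 0.05 (3.93-fold), and liver lay below mammary gland by a difference of -1.37 ± 0.34. The copper chaperone ATOX1 was also higher in subcutaneous than in visceral tissue (1.94 ± 0.03), and was higher in liver than in mammary gland (1.91 ± 0.20).

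The ZIP carrier SLC39A8, which takes up zinc and manganese, needs care. As a gene mean it was higher in mammary gland than in adipose tissue by 1.86 ± 0.08 and in liver than in adipose tissue by 1.01 ± 0.10. Its 2 elements disagreed, however: one gave 4.12 and the other -0.41 for mammary gland against adipose tissue, and 2.66 and -0.65 for liver against adipose tissue. The element on plate 13 stood at 2.19 in mammary gland, 0.73 in liver, -1.58 in mesenteric, -1.86 in omental and -2.37 in subcutaneous tissue, while the element on plate 8 ranged only from -1.42 in liver to -0.69 in mesenteric tissue. Both of these calls rest on the element on plate 13. SLC39A9, another ZIP carrier, had 1 element and was higher in liver than in adipose tissue by 1.16 ± 0.25. The metal carriers SLC11A2, SLC39A7 and SLC39A11, passed the rule nowhere. SLC41A3, a magnesium carrier, counted as lower in subcutaneous than in visceral tissue at -1.24 ± 0.64. Its elements gave -0.22 and -2.27, the larger one was missing on some arrays, and the same gene gave 1.21 ± 1.45 between mesenteric and omental tissue, with opposite signs in the orientations.

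**Figure D4:**
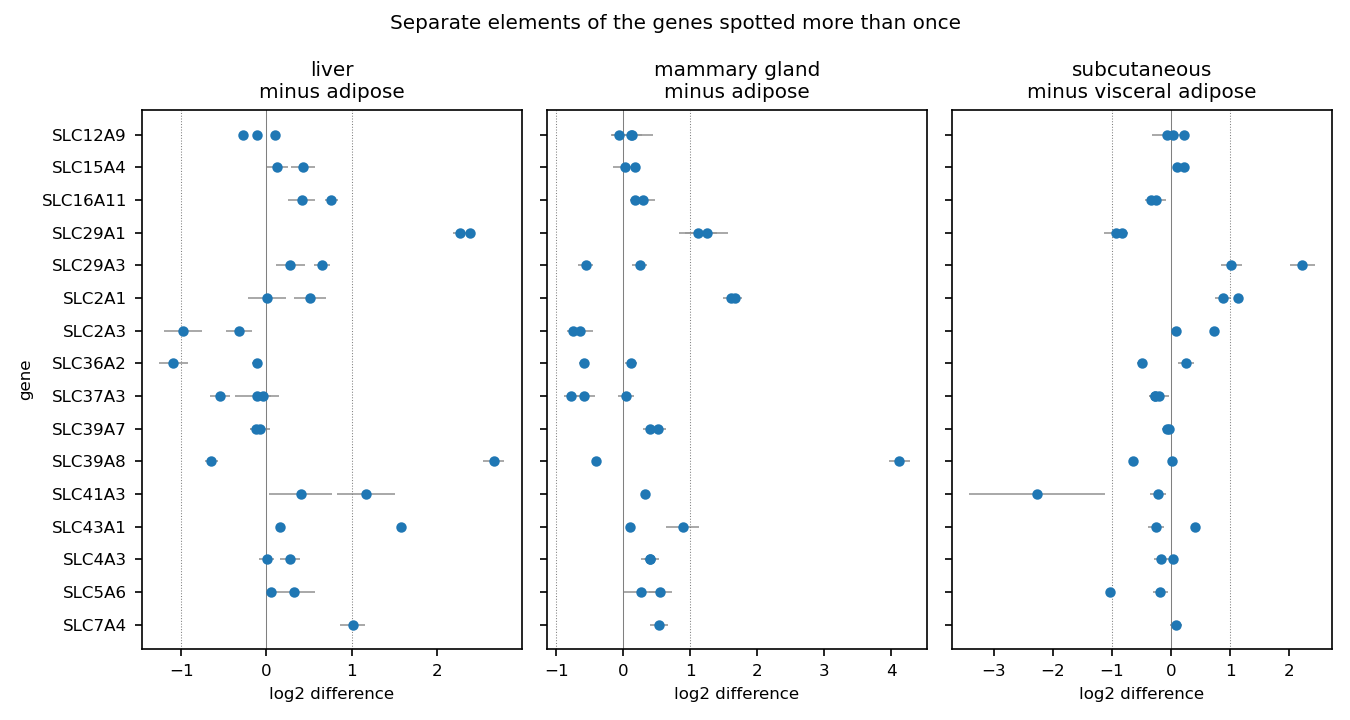
Differences of each element of the 16 solute carrier genes that have more than 1, in log2 units for 3 comparisons, with bars reaching the value of each dye orientation. The elements of SLC29A1 lie close together in all 3 panels, while those of SLC39A8 lie on opposite sides of 0 in the liver and mammary panels.

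Among the 5 carriers of sugars and monocarboxylates, only SLC2A1 passed the rule as higher in mammary gland than in liver and than in the adipose mean. It encodes GLUT1, the insulin-independent glucose carrier that supplies lactose synthesis. Its level was 0.33 ± 0.00 in mammary gland, -0.64 ± 0.04 in subcutaneous tissue, -1.05 ± 0.09 in liver, -1.54 ± 0.25 in omental and -1.74 ± 0.04 in mesenteric tissue. Mammary gland was highest in both orientations, but above subcutaneous tissue, the next, by only 0.924 with the tissues in Cy3 and 1.005 in Cy5. The omental and mesenteric depots were not ordered alike by the orientations. Mammary gland exceeded adipose tissue by 1.63 ± 0.11 (3.10-fold), with the 2 elements of the gene at 1.67 and 1.60, and liver lay below mammary gland by a difference of -1.37 ± 0.09. SLC2A1 also counted as higher in subcutaneous than in visceral tissue, at 1.004 ± 0.10, which is at the limit of the rule. SLC2A3 (GLUT3) passed the rule nowhere and ran from -2.35 ± 0.23 in mammary gland to -1.38 ± 0.09 in subcutaneous tissue. B4GALT1, the galactosyltransferase subunit of lactose synthase, which uses the glucose that enters, was higher in mammary gland than in adipose tissue by 2.40 ± 0.30, and lower in liver than in mammary gland by a difference of -2.60 ± 0.41.

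SLC16A13 and SLC16A11 belong to the monocarboxylate family and are adjacent genes on chromosome 19 of the cattle assembly ARS-UCD2.0. SLC16A13 stood at 1.74 ± 0.28 in liver, 0.88 ± 0.35 in mesenteric, 0.76 ± 0.34 in omental, 0.34 ± 0.37 in mammary and 0.13 ± 0.15 in subcutaneous tissue. It was highest in liver in both orientations, by 1.41 ± 0.09 over mammary gland and by 1.15 ± 0.00 over adipose tissue. SLC16A11 was also highest in liver, at 0.86 ± 0.15, and lowest in subcutaneous tissue, at 0.07 ± 0.06, but its differences of 0.35 ± 0.03 from mammary gland and 0.59 ± 0.04 from adipose tissue did not pass. The remaining gene of this class by its family number, SLC5A6, carries vitamins rather than sugars, and passed the rule in no comparison. Its elements gave -1.04 and -0.18 for subcutaneous against visceral tissue.

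Nucleosides, nucleotide sugars and vitamins are served by 11 measured genes. SLC29A1 (ENT1), the equilibrative nucleoside carrier of the plasma membrane, stood at 2.71 ± 0.63 in liver, 1.56 ± 0.92 in mammary gland, 0.88 ± 0.67 in mesenteric, 0.47 ± 0.66 in omental and -0.20 ± 0.52 in subcutaneous tissue. The order was the same in both orientations at all 4 steps. Liver exceeded adipose tissue by 2.33 ± 0.02 (5.02-fold) and mammary gland by 1.15 ± 0.29, and mammary gland exceeded adipose tissue by 1.18 ± 0.31. Its 2 elements gave 2.38 and 2.27 for liver against adipose tissue. The lysosomal nucleoside carrier SLC29A3 (ENT3) had another order, with 1.83 ± 0.17 in subcutaneous tissue, 1.22 ± 0.00 in liver, 0.59 ± 0.04 in mammary gland, 0.29 ± 0.06 in omental and 0.13 ± 0.01 in mesenteric tissue. SLC29A3 was higher in subcutaneous than in visceral tissue by 1.62 ± 0.19 (3.07-fold), with 1.02 and 2.22 from its 2 elements, whereas SLC29A1 pointed the other way at -0.88 ± 0.15 without passing. In liver, the SLC29A3 elements stood at 1.88 ± 0.16 and 0.55 ± 0.15, with opposite dye gaps that cancel in the gene mean. Liver minus mammary gland was 1.22 in one SLC29A3 element and 0.03 in the other. SLC35F5, whose substrate is not established, was higher in liver than in adipose tissue by 1.33 ± 0.09. The Golgi carrier of UDP-galactose, SLC35A2, which feeds lactose synthesis, passed the rule nowhere, with levels between -0.12 and 0.33 in the 5 tissues and 0.23 ± 0.24 in mammary gland. The folate carrier SLC19A1, the thiamine carrier SLC19A2, the riboflavin carrier SLC52A2 and the nucleotide sugar family members SLC35A3, SLC35B2, SLC35E1 and SLC35E2B did not pass in any comparison either.

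Of the 11 amino acid and peptide carriers, none passed between liver and mammary gland, where their differences ran from -0.54 to 0.67. With 9.39% of all genes higher and 4.44% lower there, a count of 0 among 11 genes is near the background. The glutamate carrier SLC1A3 separated adipose tissue from both organs. Its level was -1.48 ± 0.28 in omental, -1.76 ± 0.21 in mesenteric, -2.32 ± 0.11 in subcutaneous, -3.28 ± 0.05 in liver and -3.57 ± 0.13 in mammary tissue, in this order in both orientations. The difference was -1.42 ± 0.15 for liver and -1.71 ± 0.07 for mammary gland, each against adipose tissue. All 3 measured fibroblast genes were lower in the same comparisons, with medians of -3.61 and -3.54, and their part in the SLC1A3 difference was not tested. SLC7A7 (y+LAT1), the light chain of an exporter of cationic amino acids, showed another pattern. It stood at 2.47 ± 0.10 in subcutaneous tissue, against 0.51 ± 0.15 in omental, 0.50 ± 0.11 in mesenteric, 0.33 ± 0.04 in liver and -0.34 ± 0.57 in mammary tissue. The subcutaneous depot exceeded the visceral depots by 1.97 ± 0.03 (3.92-fold), and mammary gland lay below the adipose mean by a difference of -1.50 ± 0.45. The heavy chain that pairs with SLC7A7, SLC3A2 (4F2hc), passed the rule nowhere, and was 0.67 ± 0.07 between subcutaneous and visceral tissue. SLC7A4 was higher in liver than in adipose tissue at 1.01 ± 0.15, at the limit of the rule, and SLC66A3, a PQ-loop protein of lysosome-like membranes, was higher in subcutaneous than in visceral tissue at 1.08 ± 0.22. The peptide carriers SLC15A1 and SLC15A4 and the amino acid carriers SLC36A2, SLC38A10, SLC43A1 and SLC66A1 did not pass. The elements of SLC43A1 gave 0.16 and 1.58 for liver against adipose tissue, and those of SLC36A2 gave -1.09 and -0.11. The SLC7A4 call rests on 1 of its 2 elements. The other had values on only 8 arrays, so no difference could be computed from it in any comparison.

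Of the 5 genes classed by family number as vesicular and lysosomal carriers, SLC37A1 and SLC17A5 each passed. The class name does not cover all of them. SLC37A1, an exchanger of glucose 6-phosphate and phosphate in the endoplasmic reticulum, stood at 1.03 ± 0.12 in mammary gland and between -0.60 and -0.27 in the other 4 tissues. Mammary gland exceeded adipose tissue by 1.47 ± 0.38 (2.78-fold), and liver lay below mammary gland by a difference of -1.50 ± 0.34. Its relatives SLC37A2 and SLC37A3 gave 0.14 ± 0.07 and -0.44 ± 0.13 for mammary gland against adipose tissue. SLC17A5 (sialin), which exports sialic acid from lysosomes, stood at 1.28 ± 0.03 in subcutaneous tissue, 0.87 ± 0.04 in liver, 0.68 ± 0.22 in mammary gland, 0.31 ± 0.10 in omental and -0.22 ± 0.06 in mesenteric tissue. The subcutaneous depot exceeded the visceral depots by 1.24 ± 0.01. SLC17A7, a vesicular glutamate carrier, did not pass.

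The 8 carriers of inorganic ions and acid or base passed the rule in no comparison. At the shares of all genes given above, 8 genes would give about 1 call or fewer in a comparison, so this is near the background. Between liver and mammary gland their differences ran from -0.67 to -0.06. The phosphate carrier SLC20A1 came nearest to the rule, at 0.92 ± 0.03 for subcutaneous against visceral tissue, where its levels were -0.75 ± 0.02 in subcutaneous, -1.80 ± 0.04 in mesenteric and -1.53 ± 0.05 in omental tissue. The bicarbonate carrier family members SLC4A3, SLC4A9 and SLC4A11, the sodium-proton exchanger SLC9A2, the sulfate carriers SLC13A4 and SLC26A2 and the orphan SLC12A9 made up the rest.

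**Figure D5:**
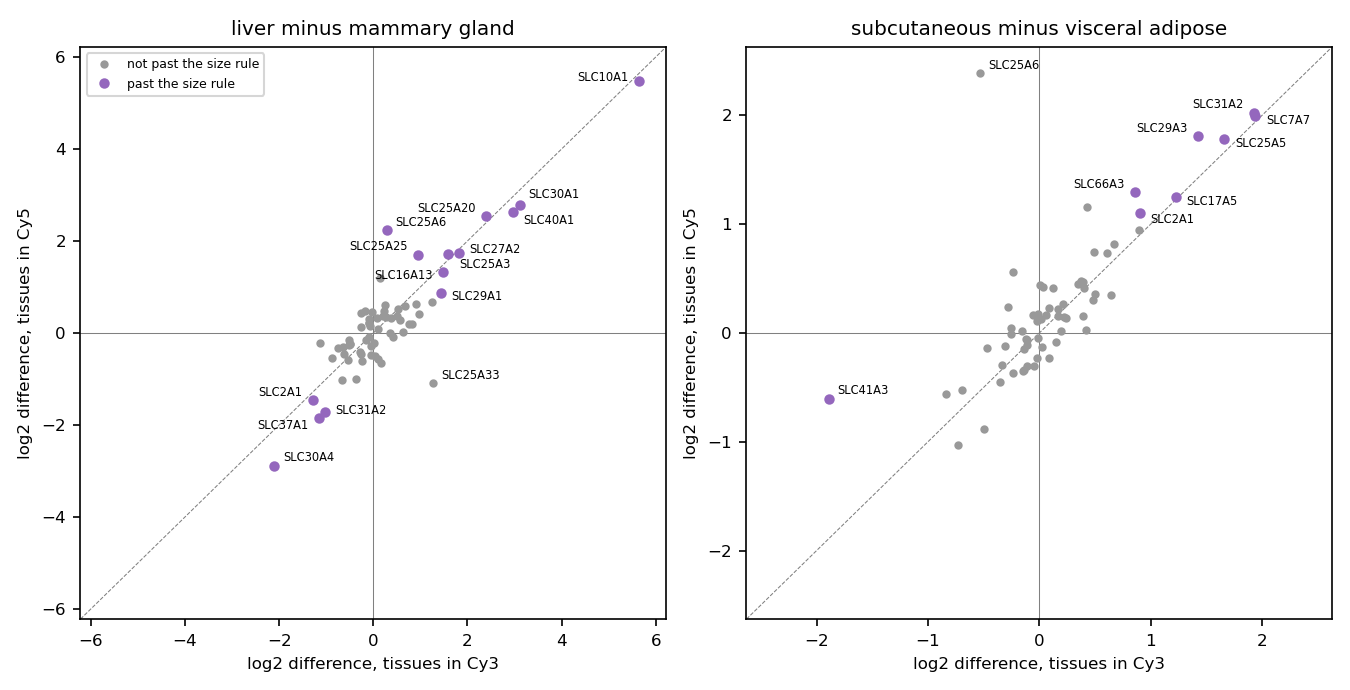
Difference of each solute carrier gene with the tissues in Cy3 (horizontal) and in Cy5 (vertical), in log2 units, for liver minus mammary gland and for subcutaneous minus visceral adipose tissue, with the dashed line at equal values. Most genes past the size rule (purple) lie near the line, while SLC25A6 lies far from it in both panels, SLC25A33, which did not pass, farthest in the left panel, and SLC41A3 away from it in the right one.

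The dye orientations were mostly close to each other. The median distance of an orientation from the mean was 0.17 over the solute carriers for liver against mammary gland and 0.09 for subcutaneous against visceral tissue. Paired spots of one element differed by a median of 0.11 over 831 pairs. Several genes lay just outside the rule between liver and adipose tissue: SLC35E2B at 0.88, SLC43A1 at 0.87, SLC25A48 at 0.86, SLC25A5 at -0.87 and SLC31A2 at -0.86. When a difference of at least 1 was asked of each orientation, 7 solute carriers were higher in liver than in mammary gland (7.54% of all genes were) and 4 lower (2.77% of all genes), with SLC25A6, SLC25A25 and SLC29A1 lost. Liver against adipose tissue then had 8 higher and 1 lower (6.22% and 4.74% of all genes), without SLC7A4, SLC39A8 and SLC39A9. Mammary gland against adipose tissue had 4 higher and 3 lower (2.06% and 4.73% of all genes), without SLC29A1. Subcutaneous against visceral tissue had 5 higher and 0 lower (5.19% and 2.77% of all genes), without SLC2A1, SLC41A3 and SLC66A3. Mesenteric against omental tissue again had 0 in either direction (0.507% and 0.161% of all genes).

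The 7 solute carriers higher in subcutaneous than in visceral tissue, SLC31A2, SLC7A7, SLC25A5, SLC29A3, SLC17A5, SLC66A3 and SLC2A1, were higher in the same library in which all 7 measured myeloid genes were higher. The myeloid genes' median level was 3.38 in subcutaneous, 1.10 in mesenteric, 1.29 in omental, 0.49 in liver and 0.53 in mammary tissue, and their part in these differences was not tested. The subcutaneous library also weighed on the adipose mean. Without it, SLC7A7 differed by -0.85 and SLC29A1 by 0.88 between mammary gland and adipose tissue and no longer passed, while SLC31A2 then passed as higher in mammary gland. Between liver and adipose tissue SLC16A13 (0.92) and SLC39A8 (0.90) were lost without it, and SLC25A25 and SLC29A3 were gained as higher in liver. Conversely, 1 solute carrier was lower in liver than in adipose tissue with all 3 depots, and 4 were when either visceral depot was left out. The count over all genes rose as well, from 262 with all 3 depots to 296 without the mesenteric and 301 without the omental depot. With the omental depot out, the 4 solute carriers were SLC1A3, SLC25A5 (-1.03), SLC31A2 and SLC7A7 (-1.16). SLC1A3 stayed below the adipose mean in liver (-1.66) and mammary gland (-1.95) without the subcutaneous depot.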

How the data were processed

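The deposited value table has 1 column for each of the 10 arrays. Its deposited values were read as log2 dye ratios. No label names the base, but none exceeds 16.61, which is the log2 of 100000. The labels' protocols state that aminoallyl cDNA was made from 20 ug of RNA and hybridised to duplicate slides for 2 days at 42 C, giving 4 spots per element. The scanner was a ScanArray 4000 and the image software GenePix 4.0. Neither the background correction nor the normalisation by the authors is given in the sources used here. Channel brightness was not used here, so dim spots could not be filtered, and precision is limited by the number of arrays. Between 15970 and 16245 of 16416 spots per array had a value. The 94 values at the ceiling were set to missing.

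Values of arrays whose tissue carried Cy3 were negated, so that all ratios read tissue over reference if the numerator was Cy5. The 2 arrays of a tissue correlated at -0.78 to -0.66 over spots as deposited, while arrays with the same dye assignment correlated at 0.23 to 0.79. The labels of 1 omental array (tissue in Cy5) name both dyes for the reference channel. Its dye label was used. Each array was centred on its median, which ran from -1.32 to 0.71, paired spots were averaged, and elements of a gene were averaged.

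The annotation's identifiers did not match the table's positions. Neighbouring positions were duplicate spots (r of 0.83 to 0.92). The table's 48 blocks of 171 elements were joined to the annotation's 16 blocks of 528 identifiers through 384-well plates, by the layout among 829440 in which clones of one gene agreed best. That layout was chosen on 476 genes with several clones. Over the 475 other such genes, its mean cosine between clones was 0.74, against 0.08 for the next different layout. Taking the identifiers at face value gave 0.03. Plates 1 to 20 were kept, with 5472 elements of 4366 genes. Agreement was lowest on plate 1 (0.38) and plate 19 (0.54). Of the named elements, 5467 matched a symbol in the gene table of the assembly ARS-UCD2.0, used for names and neighbours only. No genome or sequence was used here.

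The 5 comparisons were means of the differences within each dye orientation. The genes named are those past the size rule (up to 12 in each direction), the extremes of each tissue, 15 measured textbook carriers, and genes near the rule or of the same substrate class, which were added after their values were seen. The solute carriers, the lists of markers and partner genes and the size rule were chosen with earlier results of these data known. Scripts used Python 3.11.15, NumPy 2.4.6, pandas 2.3.3 and matplotlib 3.10.9, and were tested on simulated data. The alternatives tried were no centring, quantile normalisation, 1 dye orientation only, medians over elements, ceiling values kept, a difference of at least 1 in each orientation, each depot left out, the omental Cy5 array left out, and, chosen after seeing the data, plates 1 and 19 left out.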

Additional observations from a re-analysis of the deposited data

How the results depend on the processing

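Under 12 alternatives, the 42 pairs of a gene and a comparison that passed the size rule were followed. Each kept its direction in every value computed (378 of 378). The size rule largely fixed this in advance, since it asks for the same sign in both orientations. Values from 1 orientation could therefore not reverse, and asking a difference of at least 1 of each orientation leaves the value unchanged. The count is thus a description and no test of the calls. Over the genes chosen for naming in this text, and not all genes of the array, 868 values were followed. Of these, 699 moved by less than the SD of the 2 dye orientations, 169 moved further and 0 of the called ones changed sign. Without centring, the median of all genes was -0.22 for liver against mammary gland, where it was -0.01 with centring. It was -0.32 in place of -0.06 for liver against adipose, and 0.64 in place of 0.01 for subcutaneous against visceral. The solute carriers then numbered 8 higher and 5 lower for liver against mammary gland. Liver against adipose gave 6 higher and 4 lower, and subcutaneous against visceral 19 higher and 0 lower. Over all genes the split of higher to lower then went from 406 and 192 to 304 and 299 for liver against mammary gland, from 317 and 262 to 232 and 438 for liver against adipose, and from 270 and 160 to 861 and 40 for subcutaneous against visceral. Quantile normalisation turned 123 and 290 into 152 and 220 for mammary gland against adipose, and lost SLC29A1 (liver against mammary gland), SLC7A4, SLC16A13 and SLC35F5 (liver against adipose) and SLC2A1 (subcutaneous against visceral). Leaving out the mesenteric or the omental depot gave 4 solute carriers lower in liver than in adipose tissue, beside 296 and 301 of all genes. Without the omental Cy5 array there were 3, beside 286 of all genes. Asking a difference of at least 1 of each orientation left 0 genes lower in subcutaneous than in visceral tissue. With 1 dye orientation left out, the counts of higher and lower genes were 10 to 11 and 5 to 6 for liver against mammary gland, 9 to 12 and 1 for liver against adipose, 4 to 5 and 4 for mammary gland against adipose, 6 to 9 and 1 for subcutaneous against visceral, and 0 to 1 (SLC41A3) and 0 for mesenteric against omental tissue. The causes of these shifts were not tested. Without plates 1 and 19, the genes higher in liver numbered 8 against mammary gland and 10 against adipose tissue, and 2 were lower in mammary gland than in adipose tissue, because SLC27A2 and SLC40A1 each have their only element there. No paired analysis was possible because each tissue has 1 sample, whose replicate numbers mark the dye. Each value rests on 1 RNA sample per tissue, so no difference here is known to hold between cows, and the distance between dye orientations does not cover that spread.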

Other observations

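A list of genes that work beside solute carriers was chosen with earlier results known, so its counts are a description. Of 25 such genes measured, 11 were higher and 2 lower in liver than in mammary gland (9.39% and 4.44% of all genes were), and 7 were higher and 3 lower in liver than in adipose tissue (7.33% and 6.06%). In mammary gland against adipose tissue 2 were higher and 3 lower (2.85% and 6.72%), in subcutaneous against visceral tissue 3 were higher and 2 lower (6.23% and 3.69%), and between mesenteric and omental tissue 1 of 26 was lower (0.576%). Basigin (BSG), the chaperone that carries monocarboxylate carriers to the plasma membrane, was higher in liver than in mammary gland by 1.42 ± 0.26, and lower in subcutaneous than in visceral tissue by a difference of -1.91 ± 0.01. The scaffold PDZK1, which holds carriers of organic anions at the membrane, was higher in liver than in adipose tissue by 2.31 ± 0.03. Of the 2 sodium pump subunits measured, ATP1B3 was higher in liver than in mammary gland by 1.17 ± 0.04 and ATP1B1 was not, at -0.06 ± 0.38. Glutamine synthetase (GLUL) was lower in mammary gland than in adipose tissue by a difference of -1.43 ± 0.05, and higher in liver than in mammary gland by 1.32 ± 0.10.

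The water and glycerol channel AQP3 was higher in mammary gland than in adipose tissue by 1.16 ± 0.46 and was -0.16 between subcutaneous and visceral tissue. AQP1, a water channel of capillary endothelium, was lower in subcutaneous than in visceral tissue by a difference of -1.47 ± 0.15 and was -0.94 between mammary gland and adipose tissue, which did not pass. Of the 3 measured endothelial markers, 2 were lower in subcutaneous than in visceral tissue (3.69% of all genes were). In mammary gland against adipose tissue 0 were lower (6.72% of all genes). The differences were below 0 for all 3 in both comparisons: PECAM1 at -0.92 and -0.96, CDH5 at -1.52 and -0.63, and KDR at -1.17 and -0.28. Their part in the AQP1 differences was not tested. Between mesenteric and omental tissue, where no solute carrier passed the size rule, carbonic anhydrase CA2 was lower in mesenteric tissue by a difference of -2.60 ± 0.39. In subcutaneous against visceral tissue the haem carrier family member FLVCR2 and the lysosomal cholesterol carrier NPC1 were both higher, at 1.14 ± 0.00 and 1.14 ± 0.09.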
